A study of Homo sapiens with 6 samples.

Results

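The Eph receptors and ephrins described here are 10 genes of intestinal epithelium. They comprise the receptor genes EPHA1, EPHA2, EPHB2, EPHB3 and EPHB4 and the ligand genes EFNA1, EFNA3, EFNA4, EFNB1 and EFNB2. They were taken by gene name from a table of 58938 entries, and each of the 10 names matched 1 entry. All 10 passed the filter on low values that left 13036 genes to be tested.

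Eph proteins are receptor tyrosine kinases, and ephrins are their ligands on the surface of neighbouring cells. Ephrins of class A are held in the membrane by a lipid anchor, while those of class B span it and carry a cytoplasmic tail, so that contact can signal into both cells. In the mouse intestine, EphB2 and EphB3 mark the lower crypt and their ephrin-B ligands the upper part, which keeps proliferating and differentiated cells apart. EPHB2 and EPHB3 are known targets of beta-catenin and TCF. EPHA2 transcription is raised by ERK signalling in epithelial cells.

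The series measured RNA from HCT116, an established human colorectal cancer line. Cells received by lipofection, at 60% density, either a plasmid overexpressing MST3 (3 libraries, called MST3 here) or a vector (3 libraries, with the genotype given as WT). MST3 is a GCKIII-family kinase encoded by STK24. RNA was collected at 30 hours, with a change of medium at 6 hours. The labels give neither the promoter of the plasmid nor the origin of the replicates (separate cultures or not), and spread between libraries may be technical alone.

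Levels were deposited as FPKM, the fragments on a gene per kilobase of its length, scaled by a factor for each library. The reads that could be recovered from the values came to 15289213 to 17209736 per MST3 library and 17296201 to 17708029 per vector library. MST3 replicate 1 had the fewest reads (15289213), yet reads on the most genes, 27442 against 25099 to 25501 in the other libraries. STK24 had 63.7, 72.2 and 76 FPKM in the MST3 libraries, against 17.1, 17.4 and 17.4 FPKM in the vector libraries, which matches the labels. Of 8 colon epithelial markers, 5 (EPCAM, KRT8, KRT18, KRT19 and CDH1) were abundant, while CDX1, VIL1 and LGALS4 stayed under 0.5 FPKM in every library. The 8 summed to 1528 to 1935 FPKM in MST3 libraries and 1611 to 1661 FPKM in vector libraries. All 5 endothelial and all 5 leukocyte markers, and 5 of 6 fibroblast markers, were under 0.5 FPKM in every library. The exception was COL1A1, at 3.72 to 4.97 FPKM.

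The promoters of 3 of the genes are printed, chosen by the mRNA values that follow. EPHA2 was the most abundant of the 10. EPHA1 was the only one whose groups did not overlap, as was the case for 11.9% of all tested genes. EFNA4 had the largest difference between the groups, which did not pass the test (adjusted p = 0.719 by limma). Each sequence covers 250 bases before and 50 bases after the RefSeq start of the gene on GRCh38.p14, 5′ to 3′ on the strand of the gene. Capitals mark GGGCGG (the GC box, read on either strand) in all 3. In EPHA2 they also mark CTTTGA (a TCF core), CATTCC (a TEAD core) and TGACGTCA (the cAMP response element), and in EFNA4 also CTTTGT (a TCF core).
EPHA2, chr1:16156020-16156319, minus strand: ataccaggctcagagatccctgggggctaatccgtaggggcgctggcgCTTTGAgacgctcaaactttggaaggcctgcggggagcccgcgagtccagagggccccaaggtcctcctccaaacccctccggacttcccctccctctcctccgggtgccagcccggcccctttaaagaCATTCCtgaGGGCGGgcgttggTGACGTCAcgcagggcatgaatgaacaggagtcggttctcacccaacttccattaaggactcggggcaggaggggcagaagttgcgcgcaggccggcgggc
EPHA1, chr7:143408807-143409106, minus strand: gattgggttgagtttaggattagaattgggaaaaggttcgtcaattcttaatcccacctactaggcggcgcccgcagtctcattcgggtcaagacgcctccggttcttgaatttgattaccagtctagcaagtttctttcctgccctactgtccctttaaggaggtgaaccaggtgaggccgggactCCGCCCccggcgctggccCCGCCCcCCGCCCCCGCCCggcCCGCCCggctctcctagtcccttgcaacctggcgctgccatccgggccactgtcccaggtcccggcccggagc
EFNA4, chr1:155063490-155063789, plus strand: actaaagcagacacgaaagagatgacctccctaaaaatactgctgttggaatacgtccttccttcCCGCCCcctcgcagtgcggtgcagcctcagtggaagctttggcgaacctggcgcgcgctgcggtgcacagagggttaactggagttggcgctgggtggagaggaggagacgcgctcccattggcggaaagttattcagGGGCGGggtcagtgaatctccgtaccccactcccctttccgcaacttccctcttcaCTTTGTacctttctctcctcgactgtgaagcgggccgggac

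GGGCGG was found on at least 1 strand in the promoters of all 10 genes, against 44.6% of 27305 promoters of the same length. In EPHA1 it occurred at 5 places, the first starting 63 bases before the transcription start. The promoters of the 10 genes had a median of 69.2% G and C and of 27 CpG dinucleotides, against 58.3% and 14 over all promoters. CATTCC, which TEAD proteins bind as partners of YAP, was found in EPHA2 alone, 73 bases before the start, and in 14% of all promoters. TGACGTCA was likewise found in EPHA2 alone, 51 bases before the start, and in 1.98% of all promoters. CTTTGA was found in EPHA2 (13.1% of all promoters) and CTTTGT in EFNA1 and EFNA4 (16%). TGANTCA, the AP-1 motif, was found in none of the 10 and in 7.76% of all promoters, and CCAAT in 6 of the 10 and in 35.7%. Both strands were searched and no 2 of these motifs shared bases in the 3 printed promoters. A match describes letters and is not a measured site.

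EPHA2 stood far above the other genes, at 101 FPKM on average over the 6 libraries. EPHB4 was next with 22.5 FPKM, and neither range met that of the next of the 10. EFNB2 (14.6 FPKM), EFNB1 (12.9), EFNA4 (11.3) and EFNA3 (9.93) followed, with ranges over the 6 libraries that overlapped from each to the next. EPHB3 (6.58), EPHA1 (6.56), EPHB2 (5.96) and EFNA1 (4.7) came last, also with overlapping ranges. EPHB3 reached 7.29 FPKM and EPHA1 reached 7.96 FPKM, below and above the lowest EFNA3 value of 7.48 FPKM. The deposited lengths count all exons of a gene. With the length of the longest coding transcript instead, an alternative added after the data were seen, EPHA1 (9.23 FPKM) passed EPHB3 (7.04) and the other 8 genes kept their places. EPHA2 made up 66.5 ± 0.927% of the summed Eph receptor FPKM in MST3 libraries and 68.1 ± 2.08% in vector libraries (SD, n = 3 each).

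The other 12 Eph and ephrin genes of the table were mostly low. EFNA2, at 14.1 to 23 FPKM, was the exception and ranked 3 among all 22, and EPHB6, which lacks kinase activity, had 4.34 to 6.25 FPKM. EPHA4 averaged 1.23 FPKM and EPHA10 averaged 1.02 FPKM. EFNA5, EPHA8, EPHB1, EFNB3, EPHA7 and EPHA6 averaged 0.362 FPKM or less, and EPHA3 and EPHA5 were listed at 0 in every library. Limma called none of the 4 tested ones (adjusted p = 0.753 to 0.975).

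**Figure D1:**
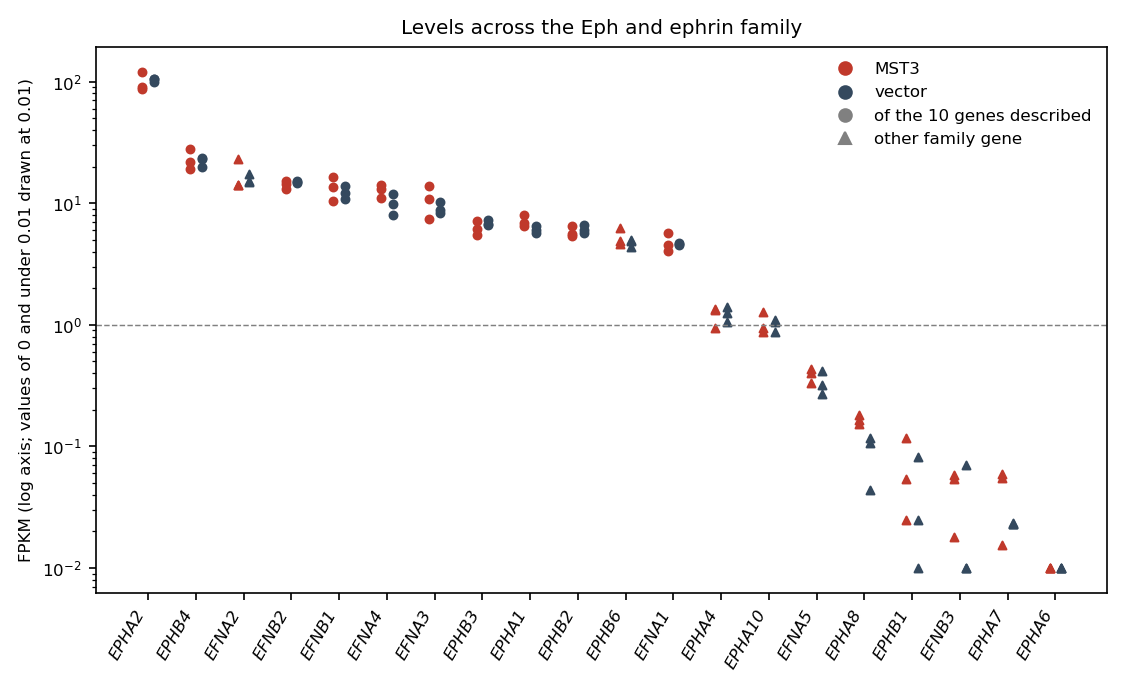
FPKM of the Eph and ephrin genes with a value above 0, ordered by their mean, on a log axis, with 1 point per library. EPHA2 lies near 101 FPKM, the other 9 genes described (circles) average 4.7 to 22.5 FPKM, and most of the rest of the family (triangles) is under 1 FPKM, the dashed line of the filter.

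The comparison of MST3 with vector asks whether the kinase alters the mRNA of these receptors and ligands. In bulk RNA, fewer cells with an mRNA and less of it per cell cannot be told apart. None of the 10 passed limma over all genes (smallest adjusted p = 0.719), and none had an unadjusted p under 0.05. Of all tested genes 0.00767%, a single gene (STK24), passed after adjustment and 5.38% had an unadjusted p under 0.05. With limma voom on the recovered reads, which also called STK24 alone (0.00767%), none of the 10 passed (smallest adjusted p = 0.714), and 2 of them, EPHA1 and EFNA4, had an unadjusted p under 0.05, against 6.68% of all genes. On the log2(FPKM + 1) scale, which understates the change of low genes, 6 of the 10 differences were above 0 (46.6% of all tested genes) and 4 below (53.4%). Their median was 0.03, beside a median of -0.01 over all tested genes. The groups did not overlap for 1 of the 10, EPHA1, with MST3 higher, against 11.9% of all tested genes in either direction and 5.19% with MST3 higher. The 95% intervals of the 10 differences together spanned -0.39 to 0.70.

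**Figure D2:**
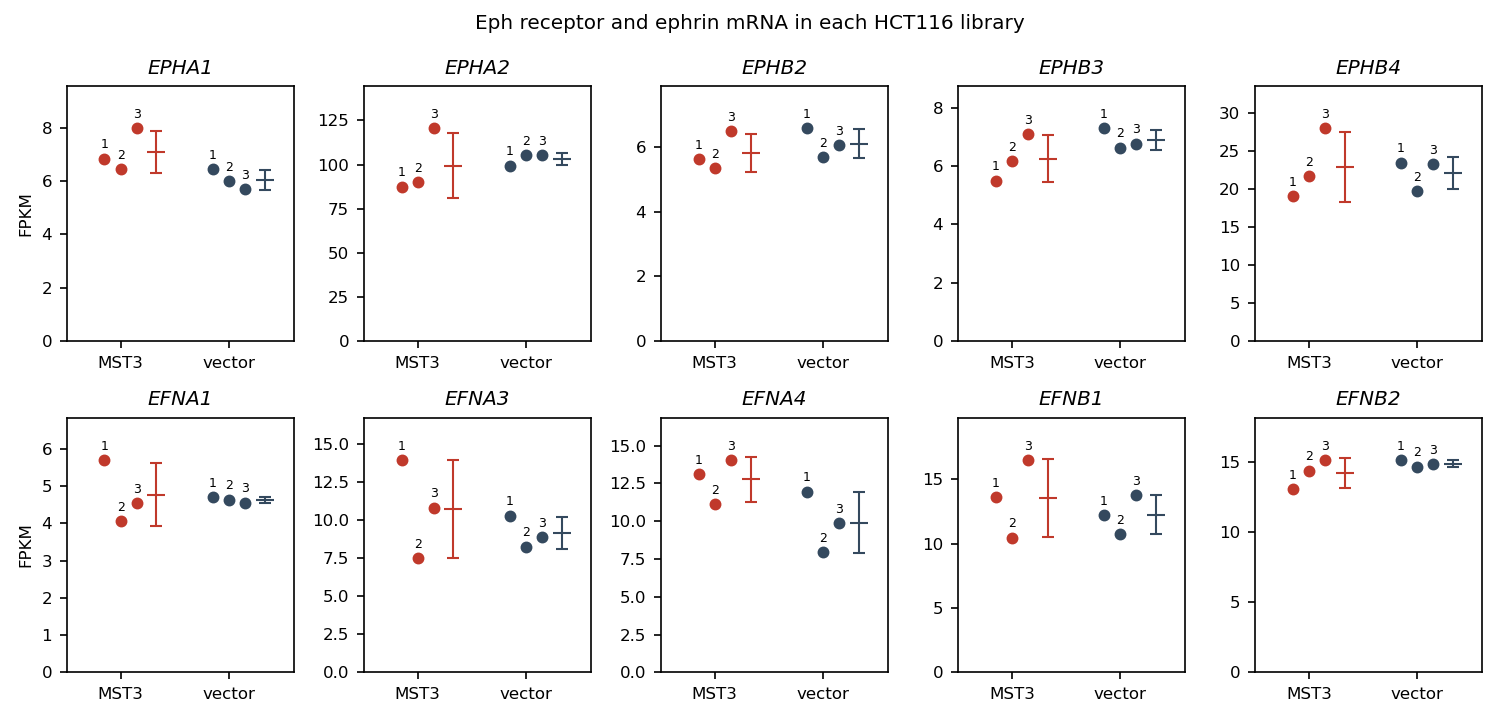
FPKM of each of the 10 genes in each library, numbered by replicate, with the mean and SD of each group (n = 3) beside the points. Each axis starts at 0. The 3 MST3 values of EPHA1 lie above the vector values, and in the other 9 genes the groups overlap.

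Among the class A receptors, EPHA2 (ENSG00000142627; chromosome 1, 16124337 to 16156087, minus strand, GRCh38) binds ephrin-A ligands and is abundant in many carcinomas. It had 87.4, 89.9 and 120 FPKM in the MST3 libraries, against 99.2, 105 and 105 FPKM in the vector libraries, from 5799 to 8585 reads per library. MST3 replicates 1 and 2 lay below all vector libraries and MST3 replicate 3 above them, so the groups overlapped. The means were 99.3 ± 18.4 FPKM in MST3 and 103 ± 3.49 FPKM in vector libraries (SD, n = 3 each). The log2 difference was -0.07 with a 95% interval of -0.39 to 0.24 (adjusted p = 0.878 by limma). The value was 0.01 when MST3 replicate 1 was left out, -0.01 when MST3 replicate 2 was, and -0.22 when MST3 replicate 3 was.

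EPHA1 (ENSG00000146904; chromosome 7, 143390289 to 143408892, minus strand), the receptor from which the family takes its name, had 6.84, 6.45 and 7.96 FPKM in the MST3 libraries. The vector libraries had 6.44, 5.98 and 5.68 FPKM. All MST3 values were above all vector values, but MST3 replicate 2 and vector replicate 1 were nearly equal. The ratio of means was 1.17, and the log2 difference 0.20 (95% interval -0.02 to 0.42, adjusted p = 0.719 by limma). Leaving out MST3 replicate 3 gave 0.12. By an exact permutation test p = 0.1, and no smaller p is possible with 3 libraries a group. The last exons of EPHA1 overlap those of ZYX on the opposite strand, and 0.482% of the 50-base words of EPHA1 transcripts also occur in ZYX. The strand setting is not known, so reads from the overlap cannot be told apart. ZYX had 47.7, 60.9 and 82.7 FPKM in MST3 and 67, 63.6 and 67.1 FPKM in vector libraries.

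The class B receptors EPHB2 and EPHB3 both averaged less in MST3 than in vector libraries, by less than the SD of the MST3 libraries. EPHB2 (ENSG00000133216; chromosome 1, 22710839 to 22921500, plus strand) had 5.63, 5.35 and 6.48 FPKM in the MST3 libraries, against 6.57, 5.68 and 6.05 FPKM in the vector libraries. The groups overlapped, and the log2 difference was -0.06 (95% interval -0.28 to 0.16, adjusted p = 0.849 by limma). Its deposited length of 12516 bp is the longest of the 10. EPHB3 (ENSG00000182580; chromosome 3, 184561784 to 184582409, plus strand) had 5.51, 6.17 and 7.09 FPKM in the MST3 libraries, against 7.29, 6.63 and 6.76 FPKM in the vector libraries. MST3 replicates 1 and 2 were below all vector libraries and MST3 replicate 3 was not. Between the groups the log2 difference was -0.13 (95% interval -0.36 to 0.10, adjusted p = 0.726 by limma). Leaving out MST3 replicate 1 gave -0.05, and leaving out MST3 replicate 3 gave -0.21.

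EPHB4 (ENSG00000196411; chromosome 7, 100802565 to 100827521, minus strand), a receptor for ephrin-B2 best known from blood vessels, had 19.1, 21.7 and 28 FPKM in the MST3 libraries. The vector libraries had 23.5, 19.7 and 23.3 FPKM. MST3 replicate 1 was the lowest of the 6 libraries and MST3 replicate 3 the highest. The log2 difference was 0.03 (95% interval -0.31 to 0.38, adjusted p = 0.953 by limma), while leaving out MST3 replicate 3 gave -0.11 and leaving out vector replicate 2 gave -0.04. EPHB4 made up 65.3 ± 2.11% of the summed FPKM of the 3 class B receptors in MST3 and 63 ± 1.45% in vector libraries (SD, n = 3 each).

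The class A ligands EFNA4, EFNA3 and EFNA1 are neighbours on the plus strand of chromosome 1, within 71.1 kb. All 3 averaged more in MST3 than in vector libraries, and none passed the test. EFNA4 (ENSG00000243364; 155063731 to 155069553) had 13.1, 11.1 and 14 FPKM in the MST3 libraries, against 11.9, 7.95 and 9.84 FPKM in the vector libraries. MST3 replicate 2 lay below vector replicate 1, and all other MST3 values were above all vector values. The ratio of means was 1.29, the largest of the 10, and the log2 difference was 0.35 (95% interval -0.01 to 0.70, adjusted p = 0.719 by limma). It was 0.21 without vector replicate 2. An exact permutation test gave p = 0.2. The reads behind EFNA4 numbered 172 to 304 per library.

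EFNA3 (ENSG00000143590; 155078872 to 155087538) had 13.9, 7.48 and 10.8 FPKM in the MST3 libraries, against 10.3, 8.25 and 8.85 FPKM in the vector libraries. The MST3 libraries held both the highest and the lowest value. The log2 difference was 0.18 (95% interval -0.29 to 0.64, adjusted p = 0.786 by limma), and -0.01 without MST3 replicate 1. EFNA1 (ENSG00000169242; 155127460 to 155134857), a ligand of EPHA2, had 5.7, 4.06 and 4.55 FPKM in the MST3 libraries, against 4.71, 4.64 and 4.56 FPKM in the vector libraries. Again MST3 replicate 1 was the highest and MST3 replicate 2 the lowest of the 6. The log2 difference was 0.02 (95% interval -0.24 to 0.29, adjusted p = 0.954 by limma), and -0.09 without MST3 replicate 1. The ratio of EFNA4 to EFNA1 was 2.71 ± 0.396 in MST3 and 2.14 ± 0.413 in vector libraries (SD, n = 3 each, exact permutation p = 0.2).

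A readthrough gene, AL691442.1, joins EFNA4 and EFNA3 on the same strand. Of the 50-base words in EFNA3 transcripts 42.2% also occur in it, and of those in EFNA4 transcripts 10.7%. How the authors counted reads on shared exons is not given in the sources used here. Whether such reads were counted for EFNA3 and EFNA4 or left out is not known, and their levels are uncertain to that extent. The readthrough gene had 3, 3 and 2 reads in the MST3 libraries and 0 reads in each vector library, all at or under the limit of 3 reads that a count of 0 allows.

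By their means over the 6 libraries, the class B ligands were the most abundant ephrins of the 10. In MST3 replicate 1, EFNA3 (13.9 FPKM) was above both. EFNB2 (ENSG00000125266; chromosome 13, 106489731 to 106535662, minus strand), the ligand of EPHB4, had 13.1, 14.4 and 15.2 FPKM in the MST3 libraries. The vector libraries had 15.1, 14.7 and 14.9 FPKM. MST3 replicates 1 and 2 were below the vector libraries and MST3 replicate 3 just above them. Its log2 difference was -0.07 (95% interval -0.26 to 0.13, adjusted p = 0.808 by limma), the narrowest interval of the 10. EFNB2 lies on the same chromosome as STK24, 7.91 Mb away. Its transcripts share 21.6% of their 50-base words with the antisense gene AL138689.2, which averaged 0.173 FPKM in MST3 and 0.17 FPKM in vector libraries, and reads on the shared part cannot be told apart either.

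EFNB1 (ENSG00000090776; chromosome X, 68828997 to 68842147, plus strand) had 13.6, 10.5 and 16.5 FPKM in the MST3 libraries, against 12.2, 10.7 and 13.7 FPKM in the vector libraries. The highest and the lowest value were again both in MST3 libraries. Its log2 difference was 0.12 (95% interval -0.27 to 0.50, adjusted p = 0.828 by limma), and -0.03 without MST3 replicate 3. The ratio of EFNB1 to EFNB2 was 0.951 ± 0.197 in MST3 and 0.82 ± 0.0969 in vector libraries (SD, n = 3 each, exact permutation p = 0.4). The ratio of the class B receptor sum to the class B ligand sum was 1.26 ± 0.112 in MST3 and 1.3 ± 0.0605 in vector libraries (exact permutation p = 0.8).

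**Figure D3:**
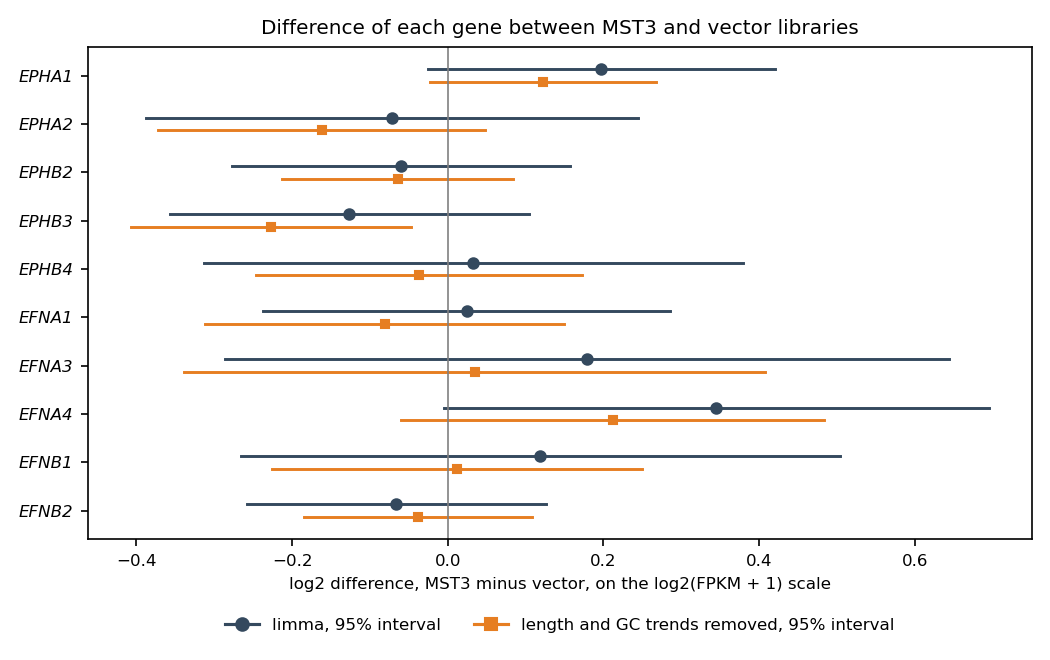
Log2 difference of each gene, MST3 minus vector, with its 95% interval, from limma on the values as deposited (circles) and after trends with length and GC content were removed within each library (squares). Every interval of the deposited values includes 0. After the removal, the interval of EPHB3, -0.41 to -0.05, does not, but its adjusted p was 0.673.

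The 10 genes mostly varied more among MST3 than among vector libraries. Their coefficient of variation was 7.45 to 30% in the MST3 libraries and 1.52 to 20.2% in the vector libraries. Counting error alone gives 1.18 to 7.01% for the reads behind these genes. The coefficient was larger in MST3 than in vector libraries for 9 of the 10 genes, EFNA4 being the exception, and for 77.1% of all tested genes. MST3 replicate 3 held the highest value of the 6 libraries for 6 of the 10 genes, against 28.4% of all tested genes. It lay above the 6-library mean for 9 of the 10, all but EFNA1, and for 6406 of all 13036 tested genes. The median deviation of the 10 in it was 0.19 on the log2 scale. MST3 replicate 2 lay below the 6-library mean for all 10 genes, with a median deviation of -0.10. Of all 13036 tested genes, 6502 lay above their mean in MST3 replicate 2. It held the lowest value for 4 of the 10, against 13.4% of all tested genes. MST3 replicate 1 also held the lowest value for 4 of the 10, against 27.4% of all tested genes, and had 5 genes above their means and 5 below. In it the 3 class A ligands, EFNB1 and EPHA1 were above their means and the other receptors and EFNB2 below.

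**Figure D4:**
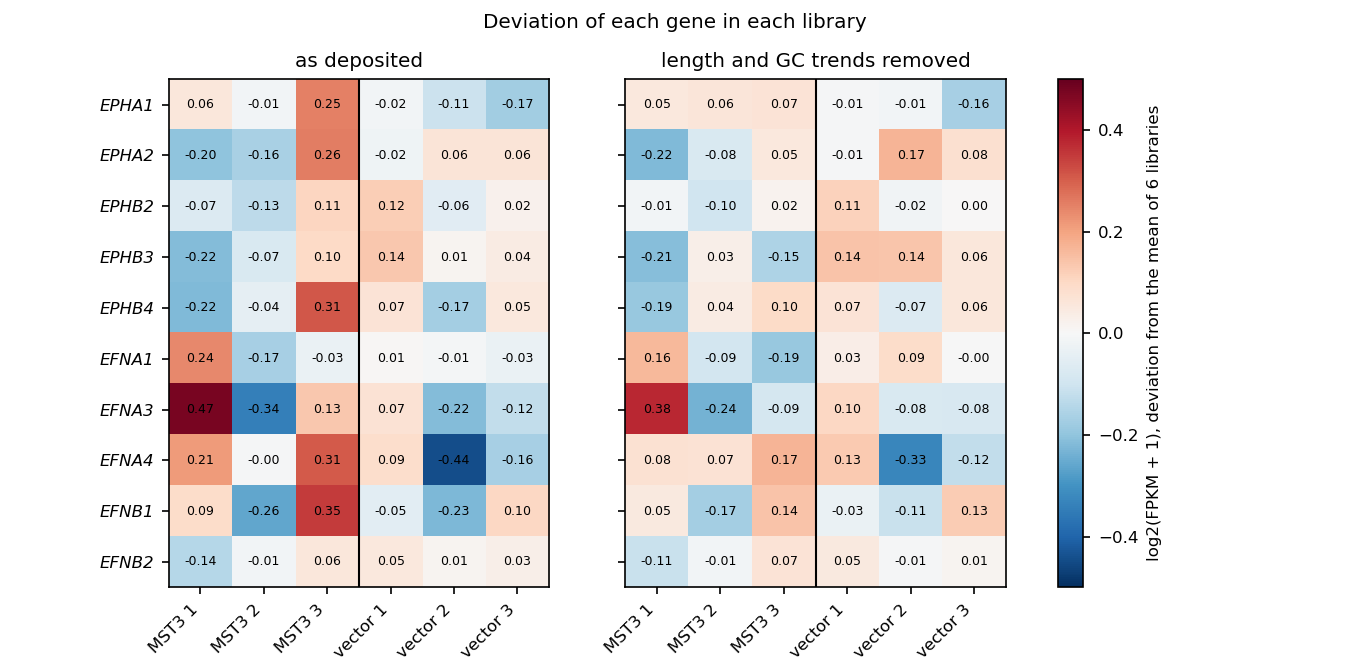
Deviation of each gene in each library from its mean over the 6 libraries, on the log2(FPKM + 1) scale, as deposited (left) and with length and GC trends taken out (right). As deposited, MST3 replicate 3 is above 0 for 9 of the 10 genes and MST3 replicate 2 is below 0 for all 10. The EFNA3 value of 0.47 in MST3 replicate 1 is the largest.

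GC content moved with these deviations. All 10 genes had transcripts richer in G and C (50 to 62.2%, median 59.9%) than the median tested gene (48.5%). With the tested genes divided into 5 classes by GC content, 7 of the 10 genes fell into the highest class and 0 into the lowest 2. In the highest class, all genes together had a median deviation of 0.27 in MST3 replicate 3 and -0.10 in MST3 replicate 2, against -0.14 in vector replicate 2. In the lowest class these were -0.15, 0.08 and 0.10. After each library's trend with length and GC content was removed, the median deviation of the 10 genes was 0.06 in MST3 replicate 3 and -0.05 in MST3 replicate 2. The median difference of the 10 was then -0.04. EPHA1 kept groups that did not overlap (log2 difference 0.12, 95% interval -0.02 to 0.27, adjusted p = 0.673 by limma). EPHB3 then also had groups that did not overlap, with MST3 lower (-0.23, adjusted p = 0.673 by limma). The share of all tested genes without overlap was not worked out for these values. Of all tested genes, 910 had an unadjusted p under 0.05 by limma after the removal, against 701 before it. The difference of EFNA4 was 0.21, and EPHB4 (-0.04) and EFNA1 (-0.08) took the other sign. The part of GC content in the differences was not tested beyond this.

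**Figure D5:**
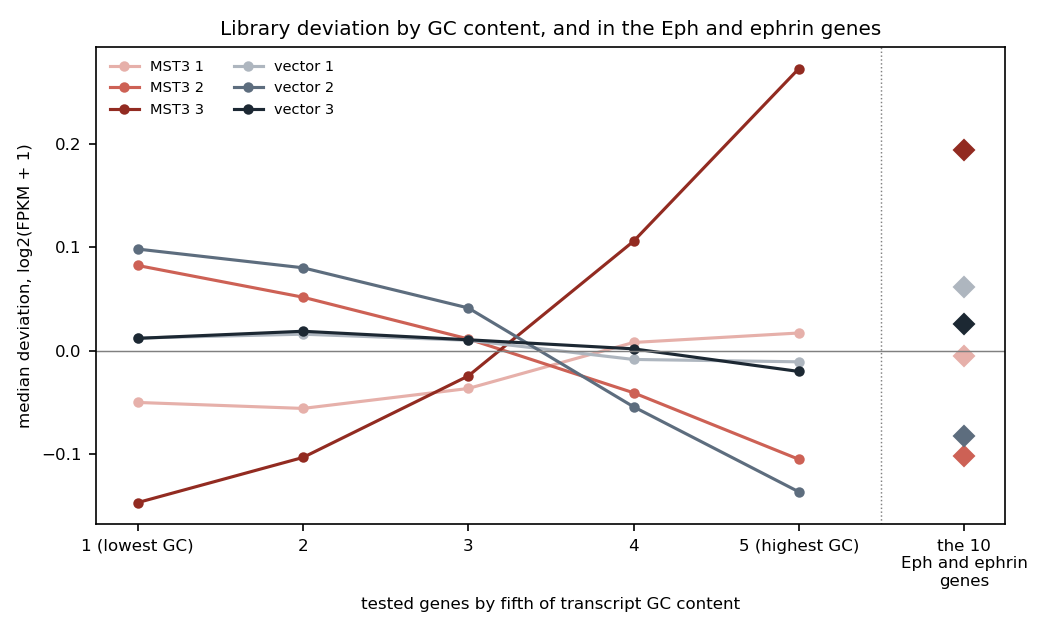
Median deviation of the tested genes in each library, on the log2(FPKM + 1) scale, in 5 classes of transcript GC content (lines), with the median of the 10 Eph and ephrin genes in the same library (diamonds). MST3 replicate 3 runs from -0.15 in the class of lowest GC to 0.27 in that of highest GC, and the 10 genes stand at 0.19 in it.

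The signalling partners of the receptors and ephrins were drawn from 64 listed genes, of which 56 could be tested, and 4 groups of them are described. Limma called none of them over all genes, and 2 (STUB1 and CBL) had an unadjusted p under 0.05, against 5.38% of all tested genes. The differences of 19 were above 0 (46.6% of all tested genes) and of 37 below (53.4%), with a median of -0.05 beside -0.01 over all tested genes. The groups did not overlap for 3 of the 56 (CBL, ABL2 and CRKL), against 11.9% of all tested genes. Without MST3 replicate 2 the median was -0.09, and with length and GC trends removed it was -0.03. In MST3 replicate 1 the median deviation of the 56 genes was -0.08, and 15 of them lay above their mean, while over all 13036 tested genes in that library the median was -0.03 and 5755 lay above.

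Among regulators of shedding, dephosphorylation and turnover, 2 of 11 genes were above 0 and 9 below, with a median of -0.07. CBL, a ubiquitin ligase that drives the degradation of activated receptor tyrosine kinases, had 17.2, 22.7 and 20.8 FPKM in the MST3 libraries. The vector libraries had 24.2, 25.9 and 23.6 FPKM, all above the MST3 values (adjusted p = 0.719 by limma). STUB1, a ubiquitin ligase that works with chaperones, had 15.5, 12.2 and 21.9 FPKM in MST3, against 11.5, 8.44 and 12.8 FPKM in vector libraries, and these groups overlapped (adjusted p = 0.719).

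Of 7 non-receptor kinases, 1 was above 0 and 6 were below, with a median of -0.14. FYN, a SRC-family kinase recruited by Eph receptors, averaged 4.13 FPKM in MST3 and 4.75 FPKM in vector libraries. ABL2, which remodels actin, had 5.98, 6.48 and 5.95 FPKM in MST3, against 7.06, 6.67 and 6.94 FPKM in vector libraries, with no overlap (adjusted p = 0.719 by limma).

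Of 16 tested adaptors and scaffolds, 8 were above 0 and 8 below, with a median of 0.00. PICK1, a PDZ protein that binds the tails of Eph receptors and class B ephrins, averaged 5.38 FPKM in MST3 and 4.45 FPKM in vector libraries. SHC1, an adaptor of receptor tyrosine kinases, averaged 40.5 FPKM in MST3 and 36.7 FPKM in vector libraries. The adaptor CRKL averaged 50.3 FPKM in MST3 and 54.8 FPKM in vector libraries, with no overlap.

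Of 11 tested exchange factors and GTPase-activating proteins, 5 were above 0 and 6 below, with a median of -0.01. ARHGEF12, an exchange factor, averaged 11.7 FPKM in MST3 and 13.1 FPKM in vector libraries, and SIPA1L1 averaged 4.32 FPKM in MST3 and 4.79 FPKM in vector libraries.

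The genes whose values over the 6 libraries were most like those of EPHA2 were SEMA3F, TRIM62 and PDE12. For each of the 3, Pearson's r of the log2 values with EPHA2 was 0.99 over 6 libraries. SEMA3F had 8.61, 9.21 and 13.6 FPKM in the MST3 libraries, against 10.3, 10.9 and 10.8 FPKM in the vector libraries, the same order of high and low MST3 libraries as EPHA2. The genes most like EFNB2 were SOX13 (r of 0.995), RYK (0.994) and DHCR7 (0.993). Of all tested protein-coding genes, 260 (2.39%) had an r above 0.9 with EPHA2 and 330 (3.03%) with EFNB2. These r were taken on the deposited values, without removal of length and GC trends. The deviation of EPHA2 in MST3 replicate 3 was 0.26 as deposited and 0.05 after that removal. Likeness after the removal was not tested.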

How the data were processed

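RNA sequencing of 6 HCT116 libraries was analysed from 1 table of FPKM values that the authors deposited, with 1 column per library. HISAT2 is named per the submitters' processing notes. For the counting program, strand setting and genome build, the entry is "not given in the sources used here". All 58735 Ensembl entries have the coordinates of GENCODE 29 on GRCh38. FPKM times gene length was a whole multiple of 1 step in 100% of values (tolerance 0.01), which gave the reads. Counting errors cover counting alone.

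The test was limma 3.58.1 (R 4.3.3, intensity trend, two-sided) on log2(FPKM + 1), over genes averaging at least 1 FPKM, with Benjamini-Hochberg adjustment over all of them and a threshold of 0.05. The fit was also run on simulated reads, with the same relative spread beyond counting for all genes and no GC trend. That run does not show what the fit could detect in these libraries. GC content came from the longest GENCODE 29 transcript (99.2% of tested genes). Promoters came from RefSeq (GRCh38.p14), all 10 matched by symbol. Words of 50 bases were compared over all GENCODE 29 transcripts, on both strands. The 10 genes and all lists were chosen with earlier results of these data known. Beside the 10 genes, the text names the rest of the family, the 2 genes with the smallest p of each signalling list described, the 3 protein-coding genes most like the most abundant receptor and ligand, and STK24. One signalling list is not reported here by itself. CRKL, ZYX and the 2 overlapping genes were named after their values were seen. Alternatives were another pseudocount, filter, scaling, variance model or test, removal of length and GC trends, a replicate block and each library left out. Summaries used Python 3.11.15 with numpy 2.4.6 and pandas 2.3.3.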

Additional observations from a re-analysis of the deposited data

How the results depend on the processing

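Limma called 1 gene, STK24, and none of the 10 under each of the 15 alternatives, with a smallest adjusted p of 0.227 for any of the 10. The genes with an unadjusted p under 0.05 numbered 298 (without vector replicate 2) to 2554 (without MST3 replicate 2) over all genes and 0 to 3 among the 10. The 3 were found without MST3 replicate 2, where the 2554 were out of 13036 tested genes. Without vector replicate 2 there were 0 of the 10. Other filters changed the number of genes tested. Of 149 differences under these alternatives 141 kept their sign, and 5 of the 10 genes kept it under all. With length and GC trends removed EPHB4 was at -0.036 and EFNA1 at -0.081. With 1 library left out, the range was -0.22 to 0.012 for EPHA2, -0.11 to 0.15 for EPHB4, -0.089 to 0.11 for EFNA1, -0.014 to 0.39 for EFNA3 and -0.026 to 0.28 for EFNB1, and the cause was not tested. For the genes that kept their sign, the ranges given are likewise those with 1 library left out. They were 0.12 to 0.25 (EPHA1), -0.13 to -0.01 (EPHB2), -0.21 to -0.05 (EPHB3), 0.21 to 0.48 (EFNA4) and -0.11 to -0.011 (EFNB2). Over all alternatives EPHA1 reached 0.26 and EPHB3 reached -0.23. The median of the 10 ranged from -0.068 to 0.088 over all alternatives. That of the 56 signalling genes was -0.052 in the main fit and ranged from -0.093 to -0.039 with 1 library left out. It was nearer 0 with length and GC trends removed (-0.029) and by limma voom on the recovered reads (-0.027). By longest coding transcript, 8 of the 10 genes kept their place in the order of levels. The replicate block called 1 gene and 0 of the 10. With it 1338 genes had an unadjusted p under 0.05 by limma, against 701 in the main fit. The interval of EFNA4 was then 0.10 to 0.59 (unadjusted p = 0.015, adjusted p = 0.482 by limma). Its interval also excluded 0 with a filter of 5 FPKM, with the other scalings and by limma voom. The same held without MST3 replicate 2 and without vector replicate 1, while the interval included 0 under the remaining alternatives. The smallest adjusted p of EFNA4 over all alternatives was 0.235 by limma. The same-numbered libraries correlated in their deviations from the group means at 0.016, 0.23 and 0.035. Differently numbered ones correlated at -0.15 to 0.12. These values do not settle whether equal numbers belong together. The labels do not say so either, and the numbers were not taken as pairs. The fewest reads lay behind EFNA4 (172 to 304 per library) and EFNA1 (179 to 231).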
